A study of Mus musculus with 21 samples.

Results

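The BCL2 family genes described here are the survival genes Bcl2, Bcl2l1 and Mcl1, the pore-forming effectors Bax and Bak1, and the BH3-only genes Bcl2l11, Bbc3, Bad and Bid. They were taken by name from a list of 10 genes, and 9 of the 10 were held in all 4 expression tables, which together hold 14698 genes. Pmaip1, the remaining gene of the list, was not analysed here. RNA-seq was performed on Ba/F3, an interleukin-3-dependent pro-B line of mouse origin that here stably expressed a retroviral human JAK2-V617F. This is the kinase mutant found in myeloproliferative neoplasms, and every group carried it, the DMSO controls included. The study reports that this mutant let Ba/F3 cells grow without interleukin-3. Whether interleukin-3 was present in the cultures used for RNA-seq was not stated. There were 21 libraries in 7 groups of 3. Cells were kept for 6 h in 1 µM ruxolitinib (a type I JAK2 inhibitor, which binds the active kinase conformation), 1 µM CHZ868 (a type II inhibitor, which binds the inactive conformation) or DMSO. For the washout groups, cells were exposed for 1 h to 1 µM ruxolitinib, 1 µM CHZ868 or DMSO, washed with PBS and kept for 6 h without inhibitor, with a separate DMSO-wash group for each inhibitor. The labels do not say that the 3 libraries of a group came from separate cultures, so p-values measure only the spread between these libraries, which may be technical. Ba/F3 is a single cell line, and the mouse Jak2 gene in the tables does not measure the human transgene.

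Proteins of the BCL2 family set the threshold for mitochondrial apoptosis. Survival members such as BCL2, BCL-XL (from Bcl2l1) and MCL1 hold the effectors BAX and BAK in check, BH3-only proteins bind the survival members or activate the effectors, and the open effectors release cytochrome c, which activates caspases through APAF1. In cells driven by JAK2, STAT5 is known to activate Bcl2l1 transcription, and loss of survival signalling is known to raise BIM (from Bcl2l11) through FOXO factors and less ERK signalling. Many steps of this pathway act on proteins by phosphorylation, cleavage or degradation, which RNA values do not show.

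Because STAT and FOXO factors bear on these genes, the start sites were searched for their motifs in the RefSeq promoter windows (GRCm38.p6), which matched all 9 members with 15 windows. The spaced STAT motif was searched as TTCNNGAA, TTCNNNGAA and TTCNNNNGAA, which read the same on both strands, and the FOXO motif as GTAAACA on both strands. Of 32851 windows of the same length, 8.52%, 8.30% and 6.95% held the respective STAT spacings, and 3.65% held GTAAACA. Among members, TTCNNNNGAA was in 1 window, at an internal start of Bcl2l1 inside an annotated exon of the gene, and GTAAACA was in windows of Bcl2l11 and Bbc3. The Bcl2l1 site is shown as 30 bases at chr2:152828474-152828503 on the minus strand, with the motif in capitals.
Bcl2l1 internal start: tgagtgctttTTCTTCAGAAtcctgctcgc
The 5′-most Bcl2l1 window, chr2:152831709-152831978 on the minus strand, is shown because Bcl2l1 had the largest difference of the 9 members under both drugs. It runs from 250 bases before the start to 20 bases from it, and none of the 4 motifs was in these letters.
Bcl2l1 first start: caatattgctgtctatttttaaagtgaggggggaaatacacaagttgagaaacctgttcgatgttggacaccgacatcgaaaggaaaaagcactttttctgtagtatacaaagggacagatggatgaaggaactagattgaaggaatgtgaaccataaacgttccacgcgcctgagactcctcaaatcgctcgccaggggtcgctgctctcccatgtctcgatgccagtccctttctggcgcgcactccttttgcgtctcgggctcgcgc
The Bcl2l11 window is chr2:128125788-128126057 and the Bbc3 window chr7:16310011-16310280, both on the plus strand. They are shown because these death genes hold the FOXO letters, in capitals, which in Bbc3 read as the reverse complement. Counted from the start site, the motif begins at -227 in Bcl2l11 and at -167 in Bbc3.
Bcl2l11: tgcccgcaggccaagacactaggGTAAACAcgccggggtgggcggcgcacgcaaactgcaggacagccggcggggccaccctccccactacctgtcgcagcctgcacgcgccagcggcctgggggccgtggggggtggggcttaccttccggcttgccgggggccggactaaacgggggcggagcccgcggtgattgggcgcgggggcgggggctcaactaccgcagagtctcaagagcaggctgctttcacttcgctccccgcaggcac
Bbc3: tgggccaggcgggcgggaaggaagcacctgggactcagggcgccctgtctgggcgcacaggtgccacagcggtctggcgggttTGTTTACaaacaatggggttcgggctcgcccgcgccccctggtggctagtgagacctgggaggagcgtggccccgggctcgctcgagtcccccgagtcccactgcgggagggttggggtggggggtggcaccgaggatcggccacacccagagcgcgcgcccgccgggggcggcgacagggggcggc
A match of letters is a description only and does not show that a factor binds there.

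In the 3 tables whose values correspond to whole reads, 7880220 to 10673060 reads per library (median 9094822) were on the listed genes. The depth of the ruxolitinib washout libraries is unknown. The share of mitochondrially encoded genes in the summed CPM was 1.36% to 1.42% in the DMSO-treated libraries and 4.93% to 6.37% in the CHZ868-treated libraries. Within 2 groups 1 library stood apart. Ruxolitinib-treated replicate 2 had 3.53% against 1.70% and 1.72%, and DMSO-wash replicate 3 of the CHZ868 experiment had 5.33% against 2.84% and 2.27%. Pairs with these libraries differed by 7.75 to 12.3 times sampling noise, and the other pairs in the 3 tables with recovered reads by 2.04 to 6.76 times. Pairs of the ruxolitinib washout libraries could not be set against sampling noise. Some member differences that use 1 of the 2 libraries that stood apart are also given without it. Ratios are given with all libraries only. Of 10 pro-B markers, 6 (Il3ra, Csf2rb, Csf2rb2, Ptprc, Cd79a and Cd79b) were in every table, while Ebf1, Pax5, Il7r and Rag1 were in none. The 6 pro-B markers summed to 3350 to 3415 CPM in DMSO-treated and 2615 to 2873 CPM in CHZ868-treated libraries. With ruxolitinib the sum was 2936 to 3468 CPM. It was 1699 to 1924 CPM in the CHZ868 washout table and 330 to 421 CPM in the ruxolitinib washout table. No T cell marker was listed. Of 4 myeloid markers, Csf1r was in every table. It fell by 1.18 with CHZ868 for 6 h (log2 scale, SE 0.32, limma-trend adjusted p = 0.0058). The ruxolitinib washout table also held Lyz2, Hbb-bt and the fibroblast marker Col1a1. Of 4 erythroid markers, Klf1 and Epor were listed in every table. Klf1 and Epor summed to 70.4 to 77.4 CPM in DMSO-treated, 136 to 163 CPM in CHZ868-treated and 141 to 150 CPM in ruxolitinib-treated libraries. Sums from different tables were normalized separately and were not centred, so they are not compared by a test. The part of any of these markers in the results below was not tested. As a check that the drugs acted, Pim1, a STAT5-induced kinase gene, fell by 3.20 on the log2 scale with CHZ868 for 6 h (SE 0.08, adjusted p = 2.6e-13). It differed by -2.84 in ruxolitinib-treated cells (no test).

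**Figure D1:**
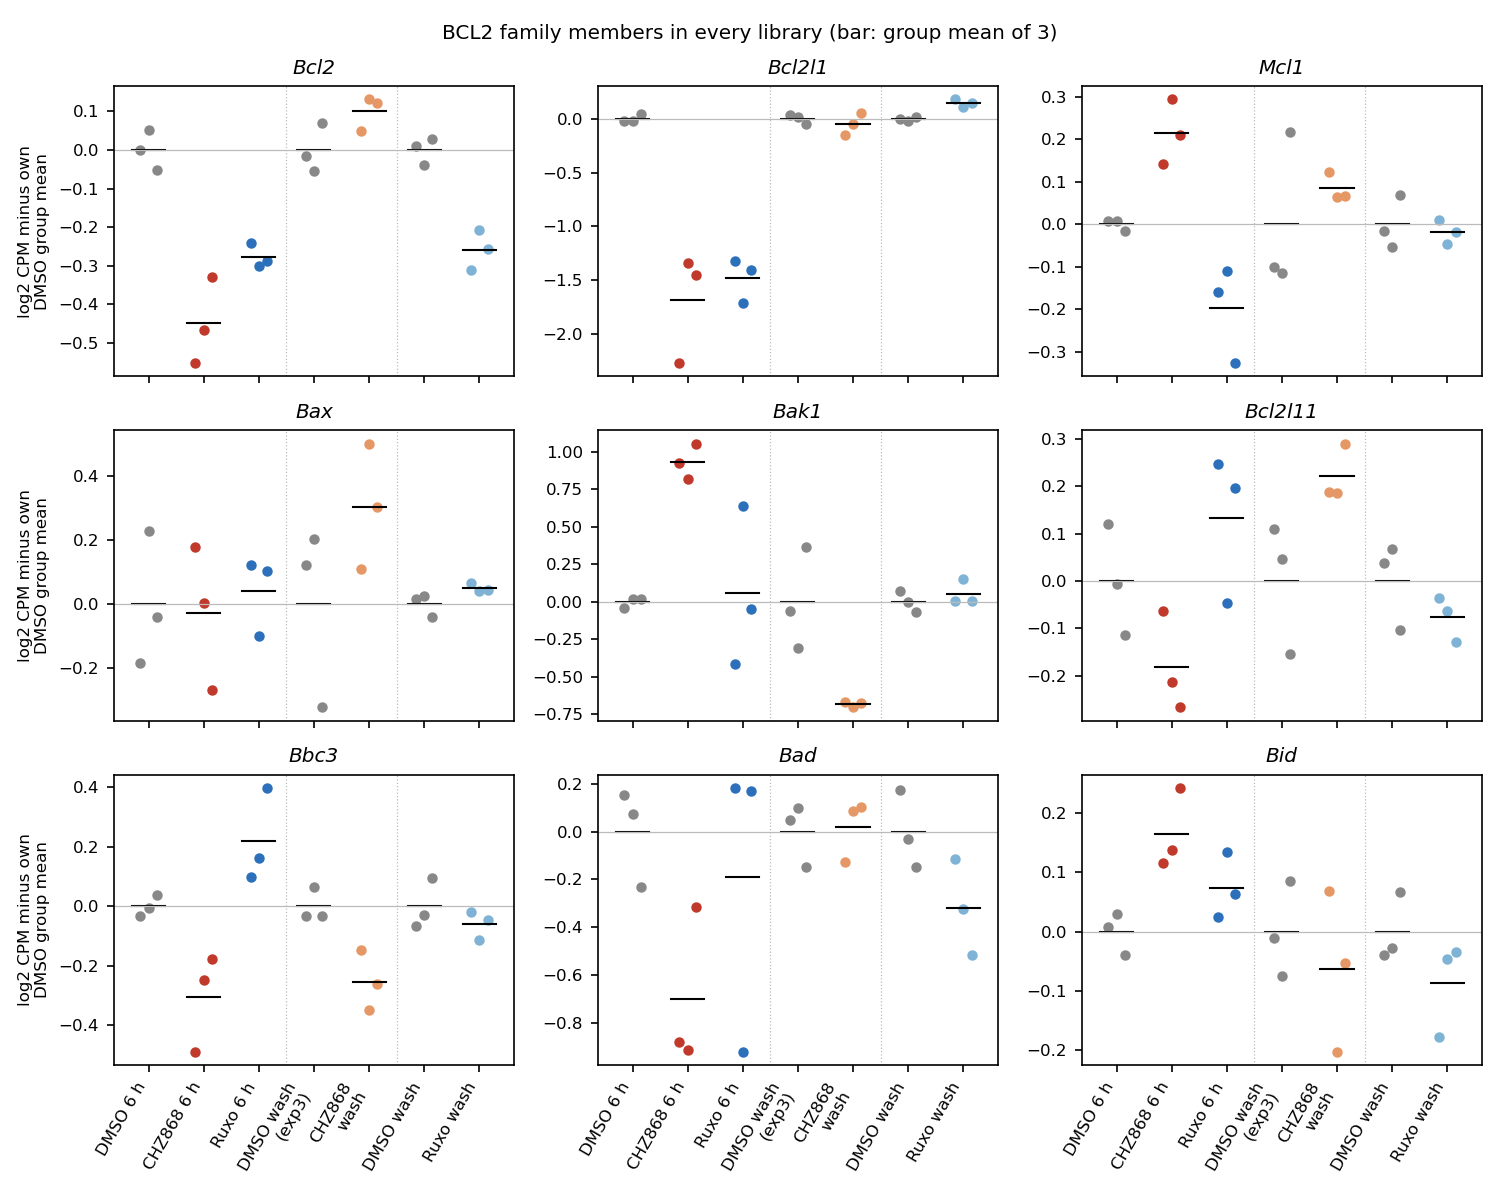
Each panel plots a member in all 21 libraries as log2 CPM minus the mean of the DMSO group of the same experiment (y axis, log2 units), with the 7 groups on the x axis, a point per library and a bar at the group mean. Ruxolitinib-treated values and their DMSO reference were centred on the median of shared genes. The Bcl2l1 points of both 6 h drug groups lie below all other points of that panel, and Bak1 is high in all 3 CHZ868-treated libraries and in 1 of 3 ruxolitinib-treated libraries.

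CHZ868 for 6 h lowered Bcl2l1 3.22-fold and Bcl2 1.37-fold, and raised Mcl1 by 1.16-fold. The effector Bak1 rose 1.91-fold, while the BH3-only genes Bad and Bbc3 fell and Bid rose slightly. In all, 7 of the 9 members passed the test (limma-trend with Benjamini-Hochberg adjustment over the table, adjusted p under 0.05), 3 higher and 4 lower. At the same threshold 53.2% of all 11670 genes passed, 26.8% higher and 26.4% lower, so the members' share has to be read against a transcriptome in which most genes moved. The median log2 fold change was -0.18 over the members and -0.01 over all genes. In these bulk libraries less RNA per cell and fewer cells with the RNA cannot be told apart.

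Bcl2l1 lies on chromosome 2 (152780668 to 152831728, minus strand, GRCm38, as for the positions below) and encodes BCL-XL. Its log2 CPM was 6.20, 6.20 and 6.27 in DMSO-treated libraries and 3.95, 4.88 and 4.77 in CHZ868-treated libraries. These values rest on 642 to 751 reads in the DMSO libraries and on 154 to 221 reads in the treated libraries. The groups were far apart, and CHZ868-treated replicate 1 was the lowest library. Bcl2l1 fell by 1.69 on the log2 scale (SE 0.18, 95% interval -2.07 to -1.31, adjusted p = 1.6e-06). Without CHZ868-treated replicate 1 it still fell by 1.40.

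Bcl2 (chromosome 1, 106538178 to 106714274, minus strand), the founding survival gene of the family, was at 7.42, 7.47 and 7.37 log2 CPM with DMSO and at 6.87, 6.95 and 7.09 with CHZ868. The groups did not overlap. Bcl2 fell by 0.45 on the log2 scale (SE 0.07, adjusted p = 8.1e-05). The annotated antisense gene D630008O14Rik shares 558 exonic bases with Bcl2 and fell by 0.42 (SE 0.14, adjusted p = 0.022). The counting was not stated to use strand, although the kit makes stranded libraries, so reads of the 2 genes may not be told apart. Mcl1 (chromosome 3, 95658788 to 95663176, plus strand) encodes a survival protein with a very short life. It was at 7.99, 7.99 and 7.97 log2 CPM with DMSO and at 8.12, 8.28 and 8.19 with CHZ868. Mcl1 was higher by 0.22 on the log2 scale (SE 0.06, adjusted p = 0.0059), but by 0.08 with an adjusted p of 0.26 after quantile normalization. Bcl2l2, which encodes BCL-W, was the only other survival gene of the pathway list that was held, and it fell by 0.69 (SE 0.16, adjusted p = 0.0023).

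Of the effectors, Bak1 rose and Bax gave no call. Bak1 (chromosome 17, 27019810 to 27029009, minus strand) was at 6.21, 6.27 and 6.27 log2 CPM with DMSO and at 7.18, 7.07 and 7.31 with CHZ868. All treated libraries were higher than all controls, and the log2 fold change was 0.93 (SE 0.07, adjusted p = 7.7e-08). Ggnbp1, a gene on the opposite strand, shares 614 annotated exonic bases with Bak1. It was at 5.35, 5.51 and 5.45 log2 CPM with DMSO and at 5.74, 5.92 and 6.20 with CHZ868, a rise of 0.51 (SE 0.11, adjusted p = 0.0012). The mitochondrial share was also higher in all 3 CHZ868-treated libraries, and the part of either in the Bak1 result was not tested. Bax (chromosome 7, 45461697 to 45466898, minus strand) was at 4.50, 4.92 and 4.65 with DMSO and at 4.87, 4.69 and 4.42 with CHZ868. The groups overlapped in part. The difference was -0.03 (95% interval -0.35 to 0.29, adjusted p = 0.88), with the opposite sign, 0.06, after quantile normalization. Gm45808, an annotated protein-coding gene on the same strand, shares 192 exonic bases with Bax and was not among the genes held. Reads from the shared bases cannot be told apart by strand.

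**Figure D2:**
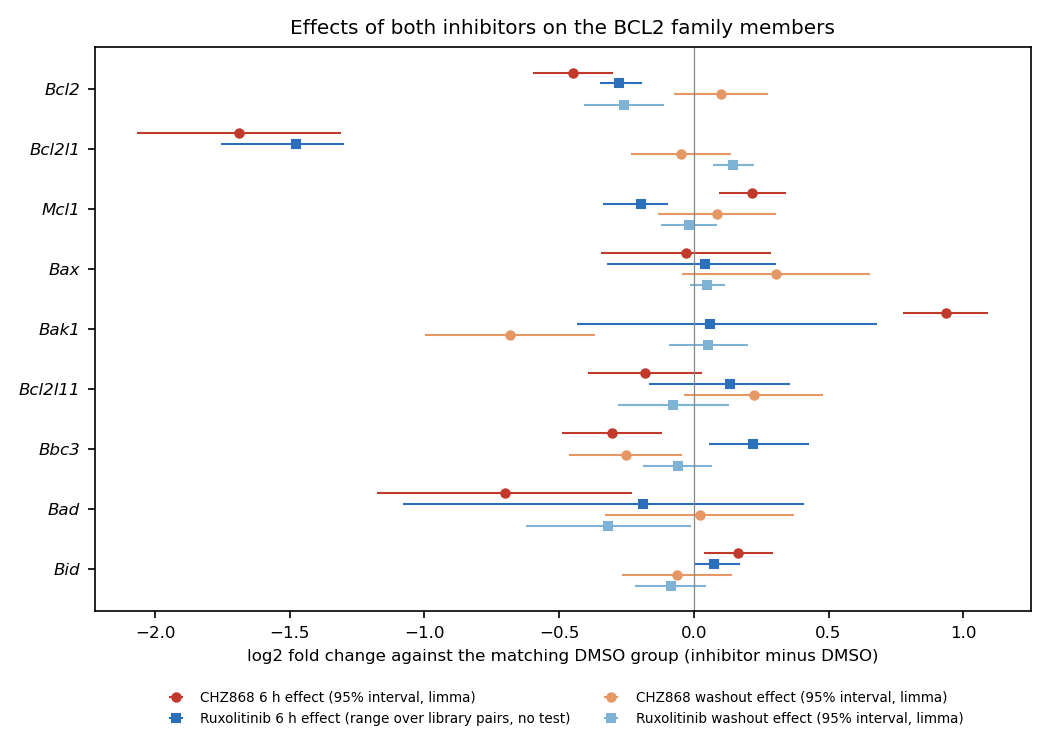
Points give the log2 fold change of each member against its DMSO group (x axis) for 4 comparisons. Bars are 95% intervals from limma for the CHZ868 6 h and both washout comparisons and the range over all library pairs, with no test, for ruxolitinib at 6 h. Bcl2l1 lies far below 0 at 6 h with both drugs, at -1.69 and -1.48, and near 0 after washout.

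The BH3-only genes did not rise together. Bcl2l11 (chromosome 2, 128126038 to 128162547, plus strand), the gene of the strong death activator BIM, was at 5.77, 5.64 and 5.54 log2 CPM with DMSO. With CHZ868 it was at 5.59, 5.44 and 5.38. The groups overlapped, and the difference was -0.18 (95% interval -0.39 to 0.03, adjusted p = 0.14). Bbc3 (chromosome 7, 16308393 to 16318205, plus strand) encodes PUMA, which p53 is known to induce. It was at 6.44, 6.46 and 6.51 with DMSO and at 5.98, 6.22 and 6.29 with CHZ868, and fell by 0.30 on the log2 scale (SE 0.09, adjusted p = 0.0082).

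Bad (chromosome 19, 6941861 to 6951899, plus strand) encodes a BH3-only protein that survival kinases phosphorylate. It had the fewest reads of the members and was at 3.73, 3.65 and 3.34 log2 CPM with DMSO and at 2.69, 2.66 and 3.26 with CHZ868. These values rest on 94 to 126 and on 46 to 75 reads. Bad fell by 0.70 (SE 0.22, adjusted p = 0.015), but the adjusted p was 0.074, 0.063 and 0.054 without DMSO-treated replicate 1, DMSO-treated replicate 2 or CHZ868-treated replicate 2, and 0.053 after quantile normalization. Gpr137 on the opposite strand shares 524 exonic bases with Bad and differed by -0.41 (SE 0.17, adjusted p = 0.057). Bid (chromosome 6, 120891930 to 120916853, minus strand) encodes the BH3-only protein that caspase-8 cleaves, and shares 628 exonic bases with Bcl2l13 on the opposite strand. It was at 7.76, 7.79 and 7.72 with DMSO and at 7.87, 7.89 and 8.0 with CHZ868. Bid was higher by 0.17 (SE 0.06, adjusted p = 0.029), a call lost without any 1 DMSO-treated library (adjusted p from 0.062 to 0.12) or CHZ868-treated replicate 3 (0.061). After quantile normalization the adjusted p was 0.40, and without the mean-variance trend it was 0.10.

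The wider pathway, 49 further genes of which 37 were held, moved in both directions with CHZ868 for 6 h. There were 13 higher, 11 lower and 13 without a call. At the same threshold 53.2% of all 11670 genes passed, 26.8% higher and 26.4% lower, so the counts below are read against these shares. Among caspases and the apoptosome, 5 of 13 rose and 4 fell. Casp6, an effector caspase gene, rose by 0.87 (SE 0.15, adjusted p = 0.00024), while Casp9, the initiator caspase of the apoptosome, fell by 0.48 (SE 0.13, adjusted p = 0.006). Among other BH3-only and related genes, the mitophagy receptors Bnip3 and Bnip3l rose by 0.81 (SE 0.07) and 0.35 (SE 0.06), and Becn1, an autophagy gene, fell by 0.35 (SE 0.07). Of 10 regulators held, 4 rose and 2 fell. Ddit3, the gene of the stress factor CHOP, fell by 1.56 (SE 0.17, adjusted p = 1.7e-06), and Foxo3 rose by 0.29 (SE 0.07, adjusted p = 0.0028). Of 7 inhibitor-of-apoptosis genes and antagonists, Birc5 rose by 0.42 (SE 0.07), Birc2 and Htra2 fell, and 4 gave no call.

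Ruxolitinib-treated and DMSO-treated cells are held in separate tables. Values were therefore centred on the median of the 11624 genes that both 6 h tables hold, no test was run, and the range over all pairs of libraries is given. Both 6 h comparisons use the same 3 DMSO-treated libraries. With ruxolitinib, Bcl2l1, Bcl2 and Mcl1 were lower and Bbc3 higher in all 3 libraries than in any DMSO library, which makes 4 of 9 members without overlap. Of all shared genes 44.6% did not overlap, 24.6% higher and 20.1% lower. Of the 37 pathway genes held, 13 were higher and 8 lower without overlap. Casp6 was among the higher with a difference of 0.68 and Foxo3 with 0.54, while Cycs, the cytochrome c gene, was lower with -0.78. With CHZ868 for 6 h, Cycs instead rose by 0.24 (SE 0.08, limma-trend adjusted p = 0.021).

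On the centred scale, Bcl2l1 was at 0.96, 0.95 and 1.02 with DMSO, at -0.35, -0.73 and -0.43 with ruxolitinib and at -1.26, -0.35 and -0.45 with CHZ868. The ruxolitinib libraries lay a mean of 1.48 log2 units below DMSO (2.79-fold lower, pair range -1.75 to -1.30), and they overlapped the CHZ868 libraries. Bcl2 was at 2.17, 2.22 and 2.12 with DMSO and at 1.93, 1.87 and 1.88 with ruxolitinib, a difference of -0.28 (pair range -0.35 to -0.19). With CHZ868 it was at 1.65, 1.72 and 1.87. Mcl1 was at 2.74, 2.74 and 2.72 with DMSO, at 2.57, 2.62 and 2.41 with ruxolitinib and at 2.91, 3.04 and 2.98 with CHZ868. The 3 groups of Mcl1 did not overlap, with ruxolitinib below and CHZ868 above DMSO.

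Bbc3 showed the opposite order. It was at 1.19, 1.21 and 1.26 with DMSO, at 1.32, 1.38 and 1.62 with ruxolitinib (a difference of 0.22, pair range 0.06 to 0.43) and at 0.76, 0.99 and 1.08 with CHZ868. Bcl2l11 was at 0.65, 0.36 and 0.60 with ruxolitinib against 0.52, 0.39 and 0.29 with DMSO. These groups overlapped, and the difference was 0.13. Without ruxolitinib-treated replicate 2 it was 0.22, and the groups did not overlap. Bax differed by 0.04 and Bid by 0.07 between ruxolitinib and DMSO, with overlap, and by 0.11 and 0.04 without that library, also with overlap. The Bid difference was -0.0069 after quantile normalization.

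Bak1 and Bad changed sign without ruxolitinib-treated replicate 2, the library with the high mitochondrial share. Bak1 was at 0.59, 1.65 and 0.96 with ruxolitinib against 0.97, 1.02 and 1.02 with DMSO, a difference of 0.06 that became -0.23 without replicate 2. Bad was at -1.49, -2.60 and -1.50 with ruxolitinib against -1.52, -1.61 and -1.90 with DMSO, a difference of -0.19 that became 0.18. In both genes replicate 2 lay on the side of the CHZ868-treated libraries. Without that library 7 of 9 members did not overlap between ruxolitinib and DMSO, where 57.2% of all shared genes did not. Fewer libraries make overlap rarer for every gene. Ggnbp1 was also highest in replicate 2, at 5.44, 5.79 and 5.40 log2 CPM. The part of the mitochondrial share in these values was not tested.

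**Figure D3:**
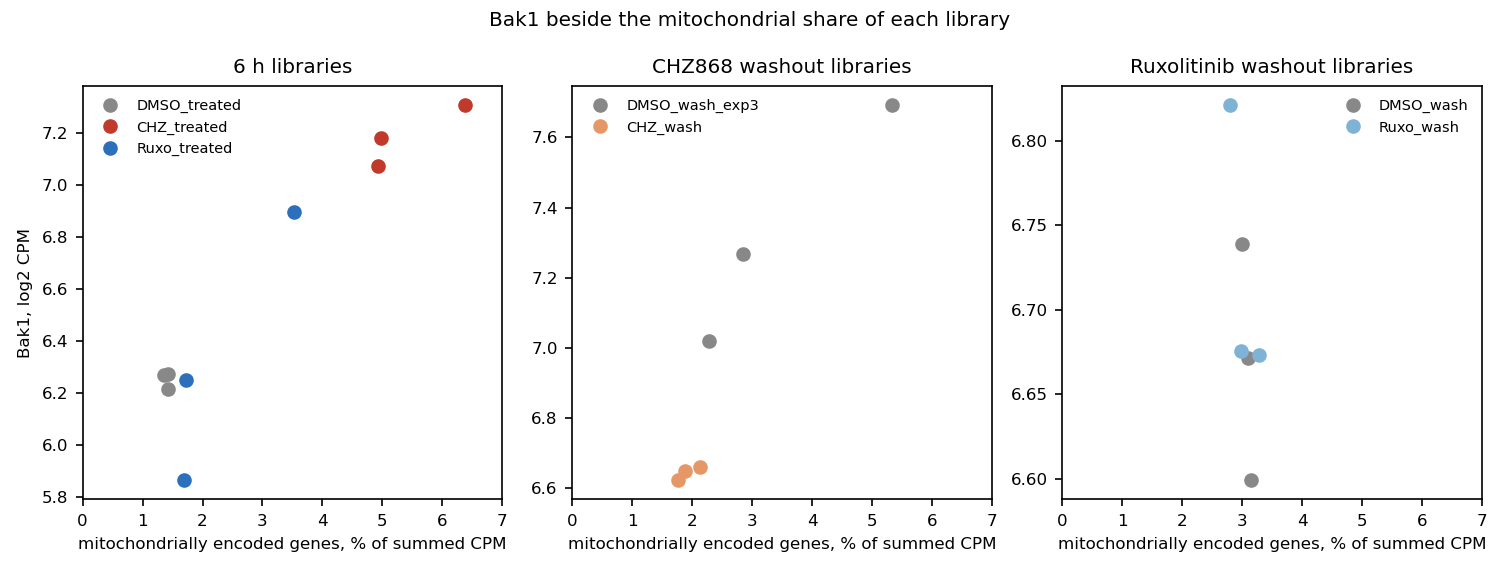
Bak1 log2 CPM (y axis, its own scale in each panel) is plotted against the share of mitochondrially encoded genes in the summed CPM (x axis, %) for 9 libraries of the 6 h groups, 6 of the CHZ868 washout and 6 of the ruxolitinib washout. In the first panel the 3 CHZ868-treated libraries and ruxolitinib-treated replicate 2 have both high Bak1 and a share of 3.53% or more. In the second panel DMSO-wash replicate 3 has the highest of both. In the third panel ruxo-wash replicate 2 has the lowest share, 2.81%, and the highest Bak1, 6.82.

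When the drugs were set against each other at the same dose and time, 4 of the 9 members did not overlap, against 35.3% of all shared genes (18.6% higher with ruxolitinib, 16.7% lower). Mcl1 was lower with ruxolitinib than with CHZ868 by a mean of 0.44 (pair range -0.64 to -0.28). Bak1 was lower by 0.90 (pair range -1.50 to -0.20) and Bid by 0.12 (pair range -0.25 to -0.01). Bbc3 was higher by 0.50 (pair range 0.24 to 0.86). Bcl2l1 differed by 0.18 with a pair range of -0.39 to 0.92, so a difference of either sign lies within the spread. Bcl2 differed by 0.15, Bcl2l11 by 0.29, Bad by 0.49 and Bax by 0.04, each with overlap. Without ruxolitinib-treated replicate 2, 7 members did not overlap, against 57.4% of genes. The added members were Bcl2 (0.16), Bcl2l11 (0.38) and Bad (0.85), while Bcl2l1 (0.30) and Bax (0.11) still overlapped, and the Bak1 difference was -1.19. Of the 37 pathway genes held, 7 were higher and 7 lower with ruxolitinib without overlap. The other survival gene Bcl2l2 differed by 0.53 with overlap.

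Ratios within a library do not depend on the scale between tables. Log2 ratios of a death gene to a survival gene were computed for 8 pairs, and overlap was not counted over other gene pairs. The ratio of Bcl2l11 to Bcl2l1 was -0.43, -0.56 and -0.73 in DMSO-treated libraries, 1.63, 0.55 and 0.61 with CHZ868 and 1.00, 1.09 and 1.02 with ruxolitinib. Both drug groups lay above DMSO without overlap, by a mean of 1.51 and 1.61. Bax over Bcl2l1 was higher by 1.66 and 1.52, and Bad over Bcl2l1 by 0.98 and 1.29, also without overlap. Bid over Bcl2 was 0.34, 0.32 and 0.35 with DMSO, 1.01, 0.94 and 0.91 with CHZ868 and 0.60, 0.77 and 0.69 with ruxolitinib. Bcl2l11 over Bcl2 differed by 0.27 with CHZ868, with overlap, and by 0.41 with ruxolitinib, without overlap.

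Ratios to Mcl1 went different ways. Bbc3 over Mcl1 was -1.55, -1.52 and -1.46 with DMSO, -2.14, -2.05 and -1.90 with CHZ868 and -1.25, -1.24 and -0.79 with ruxolitinib. CHZ868 was below DMSO by 0.52 and ruxolitinib above it by 0.42, each without overlap. Bcl2l11 over Mcl1 differed by -0.40 with CHZ868, without overlap, and by 0.33 with ruxolitinib, with overlap. This ratio was -1.93, -2.27 and -1.81 with ruxolitinib and -2.22, -2.35 and -2.43 with DMSO, so that only replicate 2 overlapped the controls. Bak1 over Mcl1 differed by 0.72 with CHZ868 and by 0.26 with ruxolitinib, where the groups overlapped. It was -1.98, -0.98 and -1.45 with ruxolitinib and -1.77, -1.71 and -1.70 with DMSO, so that only replicate 2 and replicate 3 lay above the controls. The ratios that share Bcl2l1 are not independent of each other or of the values above.

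**Figure D4:**
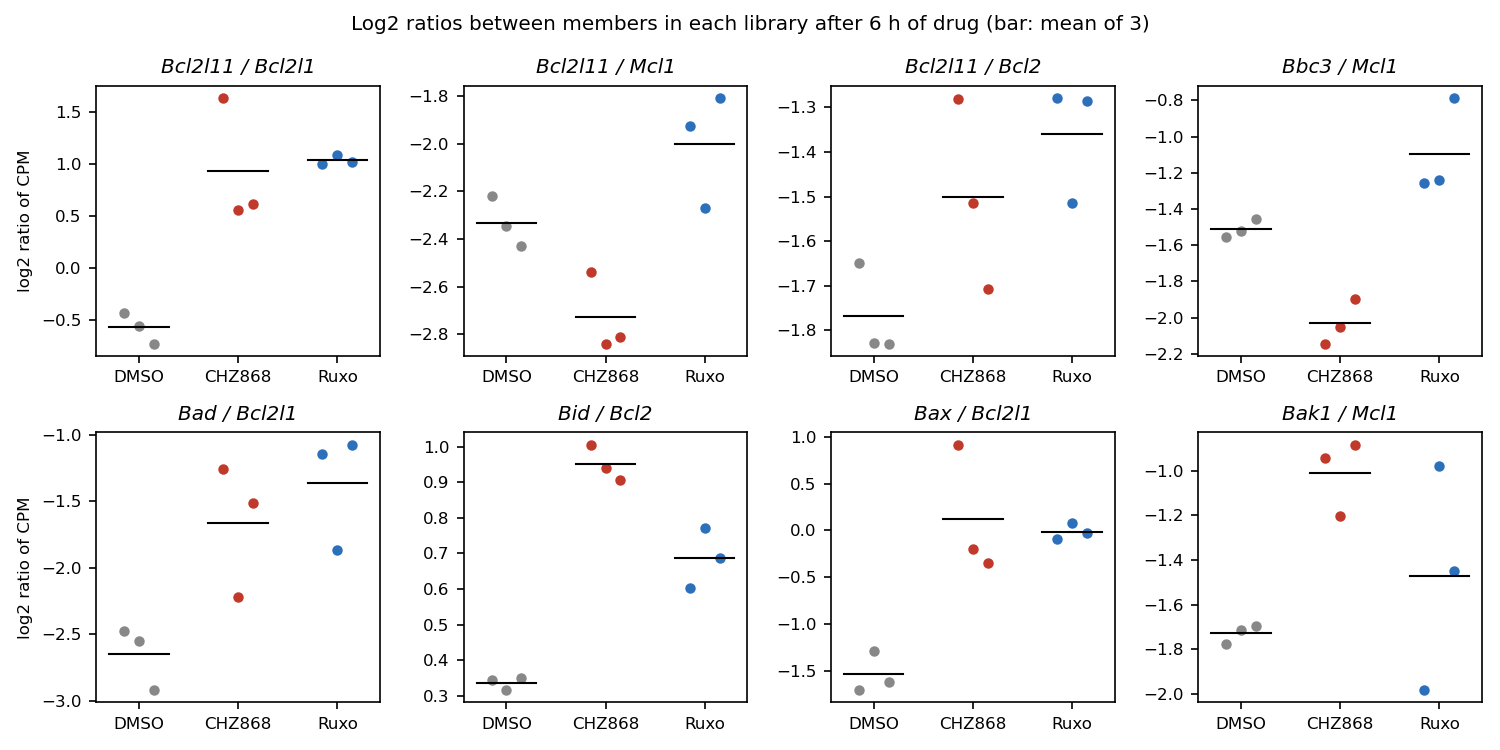
Each of 8 panels shows the log2 ratio of 2 members (y axis, log2 units) in each library after 6 h of DMSO, CHZ868 or ruxolitinib (x axis), with a bar at the mean of 3. The 3 ratios to Bcl2l1 are higher than DMSO with both drugs, and Bbc3 over Mcl1 lies below DMSO with CHZ868 and above it with ruxolitinib.

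At 6 h after CHZ868 washout, the family was close to its DMSO-wash controls, apart from Bak1, which fell 1.60-fold. Of the 9 members 1 passed the test, where 4.02% of 11355 genes passed, 1.96% higher and 2.07% lower. At an unadjusted p under 0.05 there were 2 members and 2767 of the 11355 genes, and voom on recovered reads called 1 member. Bak1 was at 7.27, 7.02 and 7.69 log2 CPM in DMSO-wash and at 6.66, 6.62 and 6.65 in CHZ868-wash. The groups did not overlap, the controls were widely spread, and the log2 fold change was -0.68 (SE 0.14, adjusted p = 0.038). Without DMSO-wash replicate 3 it was -0.50 (adjusted p = 0.0024). The adjusted p was 0.12, 0.17 and 0.16 without CHZ868-wash replicates 1, 2 and 3, 0.14 without DMSO-wash replicate 1 and 0.11 without the mean-variance trend. Ggnbp1 was at 6.42, 6.26 and 6.89 in DMSO-wash and at 5.61, 5.71 and 5.83 in CHZ868-wash, and fell by 0.81 (SE 0.15, adjusted p = 0.032). The mitochondrial share was 2.27% to 5.33% in DMSO-wash and 1.76% to 2.14% in CHZ868-wash. The erythroid markers Klf1 and Epor summed to 58.9 to 64.2 CPM in DMSO-wash and to 41.7 to 46.8 CPM in CHZ868-wash, and Klf1 fell by 0.57 (SE 0.11, adjusted p = 0.032) while Epor differed by -0.04 (adjusted p = 0.91). The part of either in the Bak1 result was not tested.

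Bcl2l1 had log2 CPM of 7.48, 7.57 and 7.68 in CHZ868-wash and 7.66, 7.64 and 7.57 in DMSO-wash. The groups overlapped, and the 95% interval of the difference was -0.23 to 0.14 (adjusted p = 0.77). The difference of Bcl2 was 0.10 (adjusted p = 0.46), of Mcl1 0.09 (0.63), of Bax 0.30 (0.26) and of Bcl2l11 0.22 (0.27). Bbc3 differed by -0.25 (95% interval -0.46 to -0.05, adjusted p = 0.13), Bad by 0.02 (0.95) and Bid by -0.06 (0.71). The 95% intervals for Bax and Bcl2l11 reached up to 0.65 and 0.48. With 1 library left out, the Bax difference ranged from 0.14 to 0.41 and that of Mcl1 from 0.03 to 0.19, without a call. Of 36 pathway genes tested by limma-trend 0 were called, while 13 had an unadjusted p under 0.05, which 2767 of all 11355 genes had, and voom called 0.

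The change that CHZ868 made in 6 h was tested against the change left after its washout, with all 12 libraries in 1 fit. It differed for 5 of the 9 members, 1 higher and 4 lower, where 47.1% of 11175 genes differed, 23.2% higher and 23.8% lower. The 6 h change was lower than the washout change by 1.64 log2 units for Bcl2l1 (SE 0.23, adjusted p = 2.4e-05) and by 0.55 for Bcl2 (SE 0.10, adjusted p = 0.00044). For Bak1 it was higher by 1.62 (SE 0.17, adjusted p = 1.5e-06), with a rise at 6 h and a fall after washout. These 3 differences passed without any 1 of the 12 libraries. For Bad the difference was -0.72 (SE 0.27, adjusted p = 0.036) and for Bcl2l11 -0.40 (SE 0.15, adjusted p = 0.037). Bad was called in 4 of the 12 fits without a library, those without DMSO-treated replicate 3, CHZ868-treated replicate 3, CHZ868-wash replicate 1 or DMSO-wash replicate 2, and was at 0.053 to 0.089 in the others. Bcl2l11 was called in 5, those without DMSO-treated replicate 3, CHZ868-treated replicate 1, CHZ868-wash replicate 1, DMSO-wash replicate 1 or DMSO-wash replicate 2, and was at 0.054 to 0.10 in the others. The Mcl1 difference was 0.13 (adjusted p = 0.37) and changed sign, to -0.01, after quantile normalization. The Bid difference was 0.23 (adjusted p = 0.099), and 0.29 (0.039) without CHZ868-wash replicate 1. Of 36 pathway genes, 10 differed upward and 10 downward.

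After ruxolitinib washout no member passed the limma-trend test, where 0.0229% of 13085 genes passed and 920 had an unadjusted p under 0.05. At an unadjusted p under 0.05 there were 3 members. Bcl2l1 was at 7.79, 7.72 and 7.76 log2 CPM in ruxo-wash and at 7.61, 7.59 and 7.63 in DMSO-wash. All ruxo-wash libraries were above all controls, by a mean of 0.15 (SE 0.03, unadjusted p = 0.0032, adjusted p = 0.40). Bcl2 was at 4.57, 4.67 and 4.62 in ruxo-wash and at 4.89, 4.84 and 4.91 in DMSO-wash. The groups did not overlap, and the difference was -0.26 (SE 0.06, unadjusted p = 0.0049, adjusted p = 0.44). Bad was at 5.74, 5.53 and 5.34 against 6.03, 5.83 and 5.71, a difference of -0.32 (SE 0.13, unadjusted p = 0.044, adjusted p = 0.70).

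The other 6 members differed by less than 0.1 log2 units in ruxo-wash. Mcl1 differed by -0.02 (95% interval -0.12 to 0.09), Bax by 0.05 (-0.02 to 0.12) and Bak1 by 0.05 (-0.09 to 0.20). Bcl2l11 differed by -0.08 (-0.28 to 0.13), Bbc3 by -0.06 (-0.19 to 0.07) and Bid by -0.09 (-0.22 to 0.04). The log2 ratios moved in both directions after washout, but overlap was not counted over other gene pairs, so no background share is given. After ruxolitinib washout, ratios to Bcl2l1 and Bcl2 carry the differences of these genes, which were not called. Bcl2l11 over Bcl2l1 was -3.88, -3.83 and -3.94 in ruxo-wash and -3.62, -3.58 and -3.78 in DMSO-wash, lower by 0.22 without overlap. After CHZ868 washout the same ratio was -2.44, -2.54 and -2.54 against -2.70, -2.74 and -2.88, higher by 0.27 without overlap. After ruxolitinib washout, Bad over Bcl2l1 (-0.46) and Bax over Bcl2l1 (-0.10) were also lower without overlap. Bcl2l11 over Bcl2 (0.18) and Bid over Bcl2 (0.17) were higher without overlap, and the other 3 ratios overlapped. After CHZ868 washout, Bax over Bcl2l1 (0.35) was higher and Bak1 over Mcl1 (-0.77) and Bbc3 over Mcl1 (-0.34) were lower without overlap, and the other 4 ratios overlapped. Of 38 pathway genes 0 were called, and 3 had an unadjusted p under 0.05.

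The 2 washout effects were compared over the 10078 genes that both tables hold. No member passed, where 1.9% of genes did and 1903 had an unadjusted p under 0.05, 3 members among them. Bak1 came nearest, with a ruxolitinib effect higher than the CHZ868 effect by 0.74 (SE 0.18, adjusted p = 0.052), then Bcl2 with a difference of -0.36 (SE 0.09, adjusted p = 0.059) and Bcl2l1 with 0.19 (SE 0.09, adjusted p = 0.25). Of 35 pathway genes 0 passed by limma-trend, with 5 at an unadjusted p under 0.05. Bak1 and Bcl2 both passed when replicate 3 of the DMSO-wash group for CHZ868 was left out, with 0.55 (adjusted p = 0.017) and -0.39 (0.023). Bak1 also passed when replicate 2 of that group was left out, with 0.89 (0.0075), and both passed after quantile normalization. The 2 washout experiments were held in separate tables and had separate controls, so an experiment and its drug cannot be told apart beyond what those controls remove.

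Levels of different genes were compared as CPM per kb of merged annotated exons. In DMSO-treated cells Mcl1 was highest at 73.8 ± 0.66 CPM per kb (SD, n = 3). It was followed by Bid at 60.8 ± 1.49, Bbc3 at 41.6 ± 1.04, Bak1 at 31.6 ± 0.72 and Bcl2 at 18.7 ± 0.67. Bax at 16.3 ± 2.45 and Bcl2l1 at 16.2 ± 0.42 came next, and Bcl2l11 at 6.24 ± 0.51 and Bad at 4.60 ± 0.64 were lowest. Neighbours in this order did not overlap, except Bcl2 with Bax and Bax with Bcl2l1. With CHZ868, Bcl2l1 stood at 5.20 ± 1.64 CPM per kb, overlapping both Bcl2l11 at 5.50 ± 0.41 and Bad at 2.83 ± 0.72. The order depended on the length used. With the longest transcript as the length, Bid at 89.4 CPM per kb stood above Mcl1 in DMSO-treated cells. Bcl2l1 then stood above both Bcl2 and Bax in these cells, without overlap. With CHZ868 and this length, the mean of Bcl2l1 was above that of Bcl2l11, with overlap. Levels differed greatly between tables. In ruxolitinib washout controls Bax was at 281.6 ± 7.14 CPM per kb and Bcl2 at 3.20 ± 0.08, so the members are ordered only within a group.

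**Figure D5:**
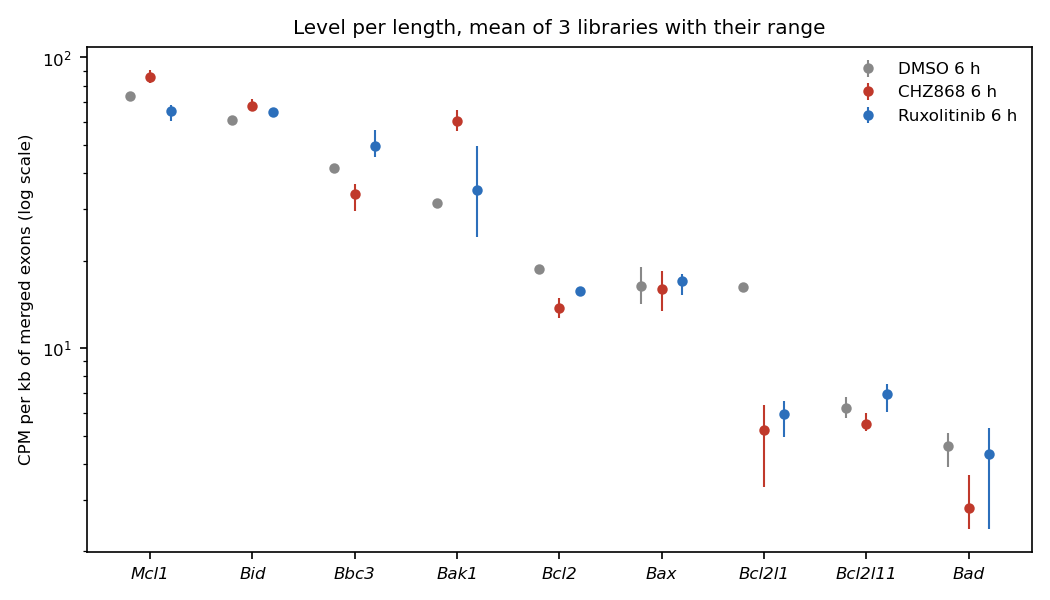
Level of each member as CPM per kb of merged exons (y axis, log scale) in the DMSO, CHZ868 and ruxolitinib groups after 6 h, with points at the mean of 3 libraries and bars over their range. The members are ordered by their DMSO level, from Mcl1 at 73.8 to Bad at 4.60, and Bcl2l1 drops from 16.2 to 5.20 with CHZ868. The ruxolitinib values come from a separately normalized table.

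The genes whose pattern was most like that of a member were found by Pearson's r over the 21 libraries, each taken against its own DMSO mean, among 9973 genes in all 4 tables. The libraries share controls and depth, so r is a description. Bcl2l1 was most like Col6a1 (r = 0.987), the STAT5-regulated kinase gene Pim2 (0.985) and Gm5970 (0.985). Bcl2 was most like Fgd3 (0.925), D030028A08Rik (0.919) and Tmem86b (0.909). For Mcl1 the 3 genes were Abce1 (0.932), Pura (0.912) and Npm1 (0.901), and for Bcl2l11 Rest (0.898), Dpp3 (0.860) and Cyb561d1 (0.860).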

How the data were processed

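RNA was isolated with Trizol and sequenced on an Illumina NovaSeq. Per the study's methods, the authors pseudo-aligned reads to GRCm38 with kallisto, summed them per gene, and used edgeR for CPM, a filter on low expression and TMM normalization. The submitters' processing notes name STAR 2.7.3a, GRCm39 and edgeR 4.0.16 instead, and which applies to which table is not given in the sources used here. The authors deposited log2 CPM, each with a constant added before the logarithm, in 4 tables of 11670, 11868, 11355 and 13085 genes. Whole reads were recovered from 3 tables (100% of low values within 0.1 of a whole read), and intervals cover the spread between libraries only.

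Groups came from the sample labels. Comparisons within a table, and the 2 differences between effects, were fitted with limma-trend (limma 3.58.1, R 4.3.3) over all genes, with Benjamini-Hochberg adjustment and a threshold of 0.05. Only the libraries compared entered a fit, without a replicate block. The scripts were tested on simulated data. Ruxolitinib-treated libraries were described without a test after centring on 11624 shared genes. Positions and exon lengths came from GENCODE vM21 and start sites from RefSeq. No other gene matched a member over 300 bases or more at 90% identity, apart from genes that overlap it.

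Alternatives were no mean-variance trend, median centring, quantile normalization, a mean log2 CPM of at least 1, log2(CPM + 1), a replicate block, voom on recovered reads, other centres for the ruxolitinib-treated libraries, the longest transcript as length, and each library left out. All members held were named, other pathway genes were given by counts with examples, and the 3 most alike genes were listed for 4 members. The members and lists were chosen with earlier results of these data known.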

Additional observations from a re-analysis of the deposited data

Results flagged for a closer look

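In 5 of the 9 members the change after 6 h of CHZ868 differed from the change left after its washout, where 47.1% of 11175 genes differed. This was a test of the difference itself (limma, adjusted p under 0.05). Bad and Bcl2l11 were called in only 4 and 5 of the 12 fits with a library left out. The difference, 6 h change minus washout change, was -1.64 log2 units for Bcl2l1 (SE 0.23), 1.62 for Bak1 (SE 0.17), -0.55 for Bcl2 (SE 0.10), -0.72 for Bad (SE 0.27) and -0.40 for Bcl2l11 (SE 0.15). Bak1 is the one member of these with calls of opposite sign in both settings, 0.93 and -0.68. The Bak1 washout call held in only 2 of 6 fits with a library left out, with an adjusted p of up to 0.17. Ggnbp1 on the opposite strand also changed by 0.51 at 6 h and by -0.81 after washout. The part of Ggnbp1 or of the mitochondrial share in the Bak1 values was not tested.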

How the results depend on the processing

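Under quantile normalization, 4 members were called for CHZ868 at 6 h, against 7, while 6110 of all genes were called, against 6214. Bax changed sign there, to 0.057, and the 6 h minus washout difference of Mcl1 to -0.013. For the difference between washout effects, quantile normalization called 2 members and log2(CPM + 1) called 1, against 0. Of all genes they called 201 and 205, against 191. Without the mean-variance trend, 0 members and 0 genes were called after CHZ868 washout (457 genes otherwise), 9 genes after ruxolitinib washout (3 otherwise), and 14 genes differed between the washout effects (191 otherwise). The cause was not tested. Replicate numbers did not pair the samples (correlations of deviations from -0.054 to 0.051). With the replicate block, 3 members differed between 6 h and washout of CHZ868 (5 otherwise), and 5109 genes did (5261 otherwise). With that block 539 genes were called after CHZ868 washout, 0 after ruxolitinib washout, and 6 differed between washout effects. With each library left out, members called ranged from 5 to 7 for CHZ868 at 6 h, from 0 to 1 after CHZ868 washout, from 0 to 2 between washout effects and from 3 to 6 between 6 h and washout. Members without overlap ranged from 4 to 7 both for ruxolitinib at 6 h and between the drugs. In these settings 50.5% to 57.2% and 39.9% to 57.4% of all shared genes did not overlap. Genes called ranged from 0 to 1426 after CHZ868 washout, from 0 to 1 after ruxolitinib washout and from 5 to 628 between washout effects. They ranged from 5081 to 6426 for CHZ868 at 6 h and from 4663 to 5583 between 6 h and washout. Some uncalled values changed sign with a library left out. The ranges were -0.13 to 0.090 for Bax with CHZ868 at 6 h, -0.097 to 0.0025 for Bcl2l1, -0.053 to 0.095 for Bad and -0.13 to 0.0075 for Bid after CHZ868 washout. They were -0.044 to 0.017 for Mcl1 after ruxolitinib washout, -0.094 to 0.041 for Bid between washout effects, and -0.12 to 0.041 for Bbc3 between 6 h and washout. Depth limits Bad most, with 46 reads in its lowest library.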
